A study of Homo sapiens with 12 samples.

Results

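The human metallothionein genes are described here through every probe set that the array's annotation pairs with MT1X, MT2A, MT1H, MT1G, MT1E, MT1F or MT1HL1. This gave 11 probe sets for the 7 genes, of 22215 probe sets and 11963 genes tested on the array, and each of the 11 is counted as a member below. The genes were chosen for their large differences between the overexpression and the empty vector arrays, so every comparison with the empty vector or overexpression arrays is given for them as a description with no test. Of the 11 probe sets, 10 have names ending in _x_at, the maker's mark for probes that can also match other transcripts, and they are called family-wide below. The remaining one, 210472_at for MT1G, does not carry that mark. No probe set was annotated to a member together with another gene.

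The study asked what more or less CXXC5, a CpG-binding zinc finger protein and inhibitor of Wnt signalling, does to gene expression in K562 cells. K562 is an established human line, called an AML cell line in the labels and known as a line from chronic myeloid leukemia in blast crisis. There were 12 arrays in 4 groups of 3, and every group, controls included, was kept without serum, given 100 ng/ml of Wnt3a protein and harvested after 8 h. Cells of the first group were nucleofected with the empty pEGFP-C2 vector and those of the second with pEGFP-C2 carrying human CXXC5, both transiently. Cells of the third group were stably infected with a lentiviral pLKO vector for a scrambled shRNA and those of the fourth with pLKO vectors for CXXC5 shRNA, for which a pair of clones is named without saying which sample held which. Vector type, delivery and duration therefore differ between the first and the last pair of groups and cannot be told apart. Whether replicates were separate cultures is not given, and the spread behind each p-value may then be technical.

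Metallothioneins are short proteins rich in cysteine, which hold zinc, copper and, on exposure, cadmium. Their genes are switched on by free zinc through MTF1, a zinc-sensing transcription factor that binds metal response elements in their promoters. The same factor drives SLC30A1, which pumps zinc out of the cell, so the metallothioneins and this exporter are widely used as a readout of available zinc. Oxidative stress, heat shock and glucocorticoids are other known inducers of the family.

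RefSeq promoter windows (GRCh38.p14, from 250 bases before to 50 after the annotated start) were at hand for 3 of the 7 genes, MT2A, MT1X and MT1H; MT1G, MT1E, MT1F and MT1HL1 had no entry. They are shown because these genes shared the pattern described below and the metal response element is the element the family is known for. The windows lie at chr16:56608334-56608633, chr16:56682220-56682519 and chr16:56669564-56669863, all on the forward strand, and are written 5′ to 3′ with each match to the 7-base core in capitals.
MT2A: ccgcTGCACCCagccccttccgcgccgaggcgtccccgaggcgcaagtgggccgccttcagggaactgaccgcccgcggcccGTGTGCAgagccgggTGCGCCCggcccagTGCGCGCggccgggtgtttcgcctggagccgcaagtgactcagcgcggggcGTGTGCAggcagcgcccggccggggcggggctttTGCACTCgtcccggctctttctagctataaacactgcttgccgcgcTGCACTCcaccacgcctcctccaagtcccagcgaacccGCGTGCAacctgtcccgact
MT1X: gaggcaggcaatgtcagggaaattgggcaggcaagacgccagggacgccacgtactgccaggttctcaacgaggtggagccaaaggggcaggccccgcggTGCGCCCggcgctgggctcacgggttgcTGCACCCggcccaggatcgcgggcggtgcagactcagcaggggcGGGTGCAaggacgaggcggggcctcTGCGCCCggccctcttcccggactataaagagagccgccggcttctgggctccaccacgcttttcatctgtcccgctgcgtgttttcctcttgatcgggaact
MT1H: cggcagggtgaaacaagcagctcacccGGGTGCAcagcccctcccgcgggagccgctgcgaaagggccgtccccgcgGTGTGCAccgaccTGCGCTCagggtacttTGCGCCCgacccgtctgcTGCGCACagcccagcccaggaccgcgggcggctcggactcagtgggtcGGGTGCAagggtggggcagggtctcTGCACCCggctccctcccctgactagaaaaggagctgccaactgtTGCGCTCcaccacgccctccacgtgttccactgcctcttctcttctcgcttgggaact
The core was searched as TGCACNC and TGCGCNC on both strands, and no matches overlapped in these windows. MT2A and MT1H held 8 matches each, and MT1X held 4. At least 8 matches were found in 0.0199% of 35116 promoter windows of this length, at least 4 in 0.601% and at least 1 in 29.6%. Other windows of the family and pathway held fewer: MT4 and MT1B held 3 each (at least 3 in 2.3% of windows), SLC30A1 held 2 (at least 2 in 8.6%) and MTF1 held 0. The MT4 probe set did not share the pattern, and whether it measured any transcript was not tested. The level of MT1B was not analysed here. No relation between matches and level was tested. The MT2A window held 37 CpG dinucleotides, the bases that CXXC domains bind, that of MT1X 26 and that of MT1H 25, against a median of 14 over all windows. As many CpG dinucleotides as in MT1X or more were found in 30.1% of windows. A match of letters is a description of the window and does not show that a factor binds there.

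All 10 family-wide probe sets were highest in the empty vector arrays, and the lowest empty vector value lay above all 9 other arrays for each of them. Over the whole array 3.01% of probe sets showed this separation, and since the members were chosen on the empty vector arrays nothing is read from the contrast. The specific MT1G probe set was the exception. The order of the group means was empty vector, knockdown, scrambled shRNA and overexpression for 9 of the 10, while MT1E probe set 212859_x_at had the overexpression mean above the scrambled mean.

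**Figure D1:**
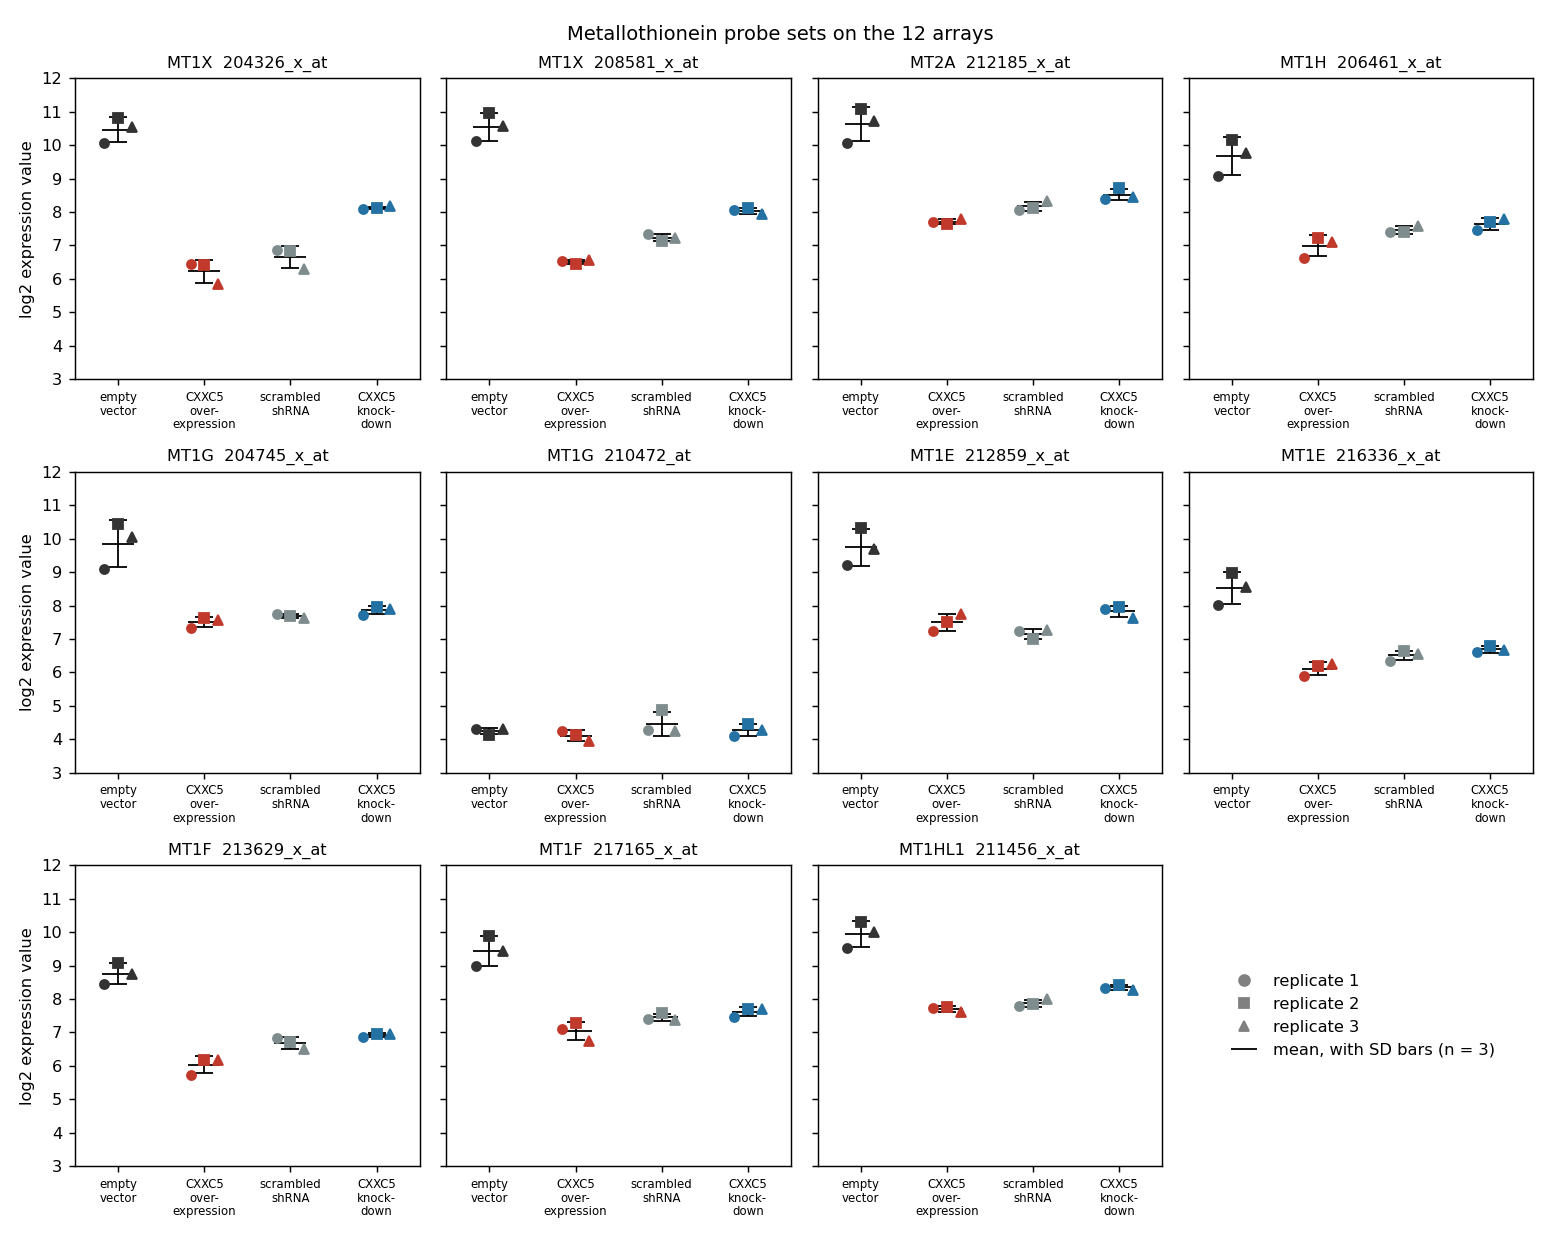
The panels plot the deposited log2 expression value (y axis) of each of the 11 metallothionein probe sets on every array by group (x axis), with the replicates as circles, squares and triangles and the group mean with SD bars (n = 3). In 10 panels the empty vector arrays stand above all others, and in the panel of MT1G 210472_at every array lies between 3.94 and 4.87.

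MT1X, one of the widely expressed members, had the largest differences. Its probe set 208581_x_at read 10.12, 10.95 and 10.57 on the empty vector arrays and 6.53, 6.45 and 6.57 on the overexpression arrays. On the scrambled shRNA arrays it read 7.34, 7.14 and 7.23, and on the knockdown arrays 8.05, 8.13 and 7.94. No group overlapped with any other. The log2 difference from the empty vector mean was -4.03 with overexpression (16.3-fold), -3.31 with scrambled shRNA (9.90-fold) and -2.50 with knockdown (5.67-fold).

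The other MT1X probe set, 204326_x_at, carries a target accession that the RefSeq table gives to MT1L, a transcribed pseudogene of the same cluster, so its gene is uncertain. It read 10.08, 10.80 and 10.53 with empty vector, 6.45, 6.41 and 5.83 with overexpression, 6.87, 6.84 and 6.29 with scrambled shRNA and 8.09, 8.11 and 8.17 with knockdown. The knockdown arrays stood between the empty vector and the scrambled arrays without overlap, whereas scrambled and overexpression arrays overlapped. The lowest array of both of the latter groups was replicate 3.

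MT2A, the member that most human cells express most strongly, read 10.07, 11.08 and 10.73 with empty vector and 7.71, 7.65 and 7.78 with overexpression. It read 8.07, 8.11 and 8.32 with scrambled shRNA and 8.40, 8.71 and 8.45 with knockdown. The 4 groups did not overlap, and the difference was 0.35 for knockdown minus scrambled and -2.11 for knockdown minus empty vector on the log2 scale.

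The remaining members are isoforms of the MT1 subfamily, with the same cysteine-rich fold and a narrower tissue range. MT1H (206461_x_at) averaged 9.67 ± 0.56 in the empty vector group and 6.99 ± 0.31 in the overexpression group, and 7.47 ± 0.11 in the scrambled group against 7.65 ± 0.18 under knockdown (SD, n = 3). MT1F has 2 probe sets, 213629_x_at and 217165_x_at, whose log2 differences from empty vector were -2.73 and -2.39 with overexpression, -2.08 and -1.97 with scrambled shRNA, and -1.84 and -1.80 with knockdown. For MT1H and for MT1F 217165_x_at the scrambled and knockdown arrays overlapped.

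MT1E also has 2 probe sets, and they ranked the groups differently. Probe set 212859_x_at read 7.23, 7.49 and 7.75 with overexpression and 7.23, 6.99 and 7.25 with scrambled shRNA, so these groups overlapped and the overexpression mean was the higher one by 0.33. Probe set 216336_x_at read 5.88, 6.20 and 6.24 with overexpression and 6.35, 6.63 and 6.55 with scrambled shRNA, without overlap and in the other order. With empty vector they read 9.22, 10.32 and 9.69 (212859_x_at) and 8.03, 8.99 and 8.56 (216336_x_at), above every other array.

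MT1HL1, a member on another chromosome than the main cluster, read 9.53, 10.31 and 10.02 with empty vector and 7.74, 7.76 and 7.61 with overexpression. With scrambled shRNA it read 7.78, 7.85 and 7.99, and with knockdown 8.34, 8.42 and 8.28. Its probe set, 211456_x_at, is family-wide as well, so its values can hold signal of the clustered genes. Overexpression arrays lay below scrambled arrays without overlap for 8 of the 11 members, and 18.2% of all probe sets showed that separation. Since the members were chosen partly on the overexpression arrays, nothing is read from this contrast. The groups in it also differ in delivery.

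MT1G offers the contrast between the kinds of probe set. The family-wide 204745_x_at read 9.08, 10.43 and 10.06 with empty vector and 7.33, 7.61 and 7.56 with overexpression, and the scrambled (7.74, 7.70 and 7.63) and knockdown arrays (7.72, 7.96 and 7.91) overlapped. The specific 210472_at read 4.31, 4.13 and 4.30 with empty vector and 4.26, 4.11 and 3.94 with overexpression, with 4.26, 4.87 and 4.24 for scrambled shRNA and 4.11, 4.45 and 4.26 for knockdown, so that every pair of groups overlapped. It is dim, at the 16.8th percentile of mean level over all probe sets, against the 53.7th to the 74.8th for the family-wide ones. Detection calls were not used here, so whether this probe set measured any MT1G transcript was not tested. Family members outside the 7 that have a probe set of their own, none of them family-wide, were MT1M, MT3 and MT4. MT1M read between 2.84 and 3.36 on the 12 arrays, and the means of MT3, known from brain, were 5.77, 5.80, 6.01 and 5.77 in the order empty vector, overexpression, scrambled shRNA, knockdown. MT4, known from squamous epithelium, had means of 6.34, 6.20, 6.27 and 6.07 in the same order of groups. None of the 3 passed the test in overexpression, knockdown or the comparison of controls by limma, with 1, 0 and 0 of them at an unadjusted p under 0.05. MT1M, MT3 and MT4 stood at the 4.57th, 38.7th and 44.2th percentile of mean level. Whether their probe sets measured any transcript was not tested.

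Knockdown against scrambled shRNA is the comparison that uses none of the arrays the members were chosen on, and it was tested. Earlier results of these data were known at that choice, so the test may not be fully independent of it. Both probe sets annotated to MT1X rose, 204326_x_at by 1.45 (SE 0.208, 2.74-fold, limma adjusted p = 0.0012) and 208581_x_at by 0.80 (SE 0.157, 1.74-fold, limma adjusted p = 0.00719). The gene of 204326_x_at is uncertain, as given above. Both are family-wide and can share transcripts, so they cannot be read as separate measures of MT1X. These were 2 of the 11 members called, and 0 were called down; on the whole array 6.13% of probe sets rose. Among all 22215 probe sets 1 had a larger rise than 204326_x_at, and 55 had a larger rise than 208581_x_at.

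The other 9 members did not pass. MT1E 212859_x_at stood at 0.67 (SE 0.223, limma adjusted p = 0.082) and MT1HL1 at 0.48 (SE 0.149, limma adjusted p = 0.0659), both with knockdown arrays wholly above scrambled arrays. MT2A stood at 0.35 (limma adjusted p = 0.291), and the remaining family-wide probe sets at 0.17 to 0.25. The specific MT1G probe set stood at -0.18. In all, 10 of 11 members had the higher mean with knockdown and 6 of 11 did not overlap, where 16.3% of probe sets on the array had knockdown above scrambled without overlap. The median difference over the 11 was 0.25, against -0.00696 over all probe sets.

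The spread used in this test is shared by all 4 groups and thus includes the empty vector arrays, in which the 10 family-wide probe sets, though not MT1G 210472_at, had their largest SD. Fitted on the 6 lentiviral arrays alone, 4 members rose, MT1E 212859_x_at (limma adjusted p = 0.019) and MT1HL1 (limma adjusted p = 0.0209) besides both probe sets annotated to MT1X. Scrambled shRNA replicate 3 stood apart in RNA quality, with a 3′ to 5′ difference of 0.87 log2 for GAPDH against 0.227 to 0.335 on the other 11 arrays. Without it the same 2 probe sets rose, 204326_x_at by 1.27.

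**Figure D2:**
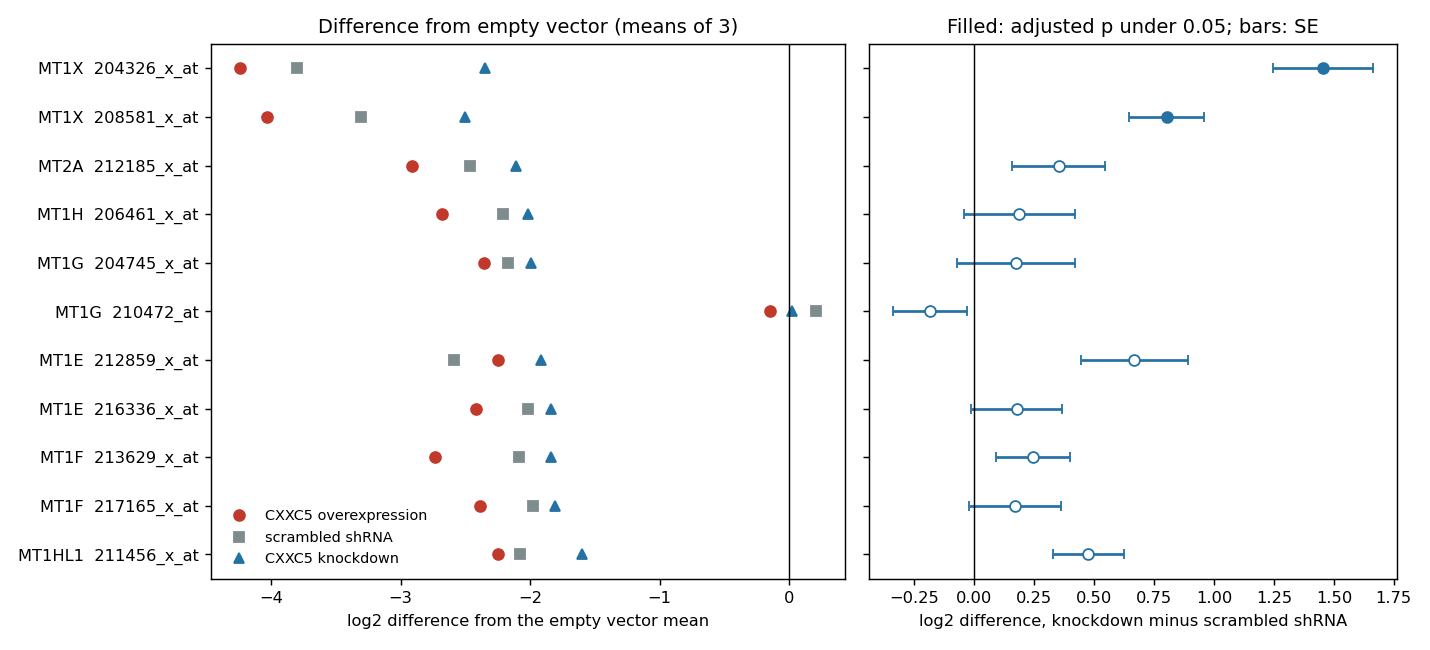
Left, the log2 difference of each group mean from the empty vector mean (x axis) for the 11 probe sets (y axis); right, the log2 difference of knockdown minus scrambled shRNA with its SE, filled where the limma adjusted p was under 0.05. On the left all family-wide probe sets lie at -1.60 or below in the 3 groups, and on the right both MT1X probe sets are filled, at 1.45 and 0.80.

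For the family-wide probe sets knockdown minus empty vector ran from -2.50 to -1.60 with a median of -1.95, while knockdown minus scrambled ran from 0.17 to 1.45. Set against the distance from scrambled to empty vector, the knockdown arrays covered 38.3% of it for 204326_x_at, 24.3% for 208581_x_at, 25.9% for MT1E 212859_x_at and 22.9% for MT1HL1. For MT1H, the family-wide MT1G probe set, MT1E 216336_x_at and both MT1F probe sets the share was 8.10% to 11.8%, and for MT2A it was 14.3%. The comparisons with empty vector share those arrays and are given side by side, with no test. Family-wide medians were -2.55 for overexpression minus empty vector and -2.19 for scrambled minus empty vector.

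Within the empty vector group the family-wide probe sets deviated together. Replicate 1 was the lowest and replicate 2 the highest array for 10 of 10 family-wide probe sets, with median deviations from the group mean of -0.47 and 0.45. The median SD of these probe sets was 0.464 in that group, against 0.0935 over all probe sets, and 99.8% of probe sets varied less than that median. The median SD was 0.228 in the overexpression group, 0.121 in the scrambled group and 0.110 in the knockdown group. There no array was lowest for all 10, the nearest being knockdown replicate 1, which was lowest for 7. Empty vector replicate 1 had an array median of 6.68 and a GAPDH 3′ to 5′ difference of 0.257, both inside the range of the other arrays.

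**Figure D3:**
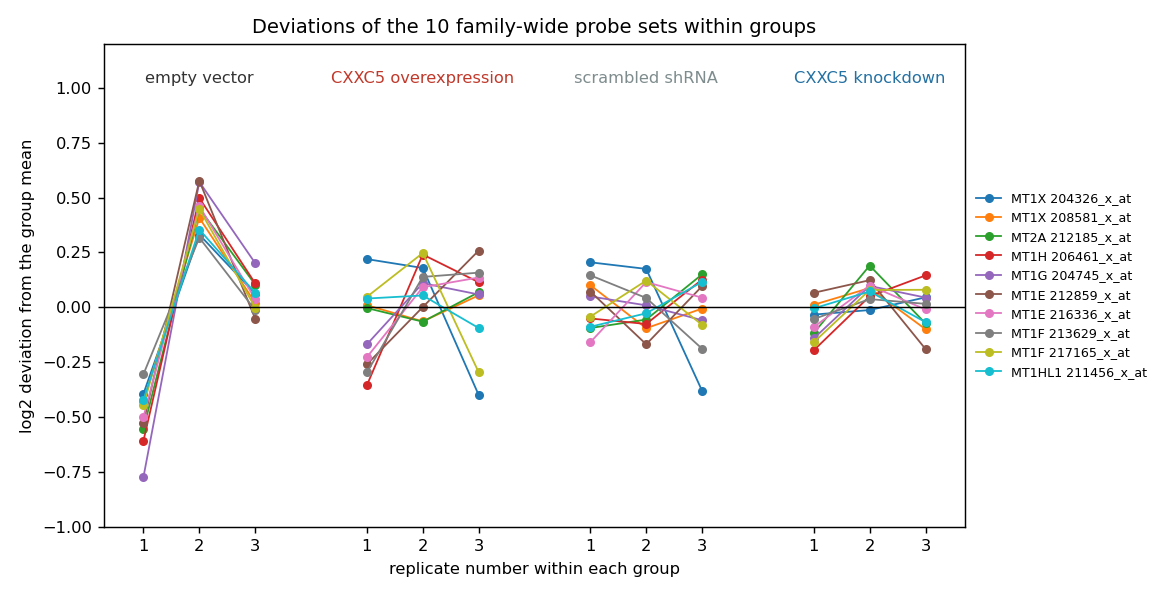
Each point is the log2 deviation (y axis) of a family-wide probe set from its group mean on a replicate (x axis), and lines join the same probe set within a group only to make it traceable. In the empty vector group all 10 are lowest on replicate 1 and highest on replicate 2; in the other 3 groups no array is lowest for all of them.

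Across the 12 arrays the family-wide probe sets correlated closely with each other, with Pearson's r between 0.92 and 0.995 for the 45 pairs. Without the empty vector arrays, over 9 arrays, r ranged from 0.04 to 0.96 with a median of 0.78. These values are descriptions, since the probe sets share arrays and can share transcripts.

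Zinc transport genes and MTF1 were followed as the rest of the pathway, each gene by its brightest probe set, with 16 of 25 listed genes measured. The zinc exporter SLC30A1 read 9.68, 9.87 and 9.70 on the empty vector arrays and 8.20, 8.18 and 7.97 on the overexpression arrays. It read 8.55, 8.29 and 8.39 with scrambled shRNA and 9.63, 9.57 and 9.57 with knockdown, so the knockdown arrays lay below the empty vector arrays and above the other groups without overlap. Its level fell by 1.63 with overexpression (limma adjusted p = 1.2e-06) and rose with knockdown by 1.18 (limma adjusted p = 1.19e-05). The controls differed as well, with scrambled minus empty vector at -1.33 (limma adjusted p = 1.86e-06). Knockdown minus empty vector was -0.16 for SLC30A1, where the family-wide metallothionein probe sets had -2.50 to -1.60; the difference between them was not tested. MTF1 itself had means of 7.69, 7.54, 7.37 and 7.40 in the order empty vector, overexpression, scrambled and knockdown, and did not pass in any of the 3 comparisons. Of the 16 genes, 3 rose and 1 fell with knockdown, 0 rose and 1 fell with overexpression, and 3 were higher and 4 lower with scrambled shRNA than with empty vector. Over all genes 11.8%, 5.25% and 29.4% were called in these comparisons. Besides SLC30A1, the exporter of the secretory pathway SLC30A5 rose with knockdown by 0.51 and the importer SLC39A14 by 0.34. The importer SLC39A4 fell by 0.31 (limma adjusted p = 0.0454), a call lost without scrambled replicate 3 or any 1 of the 3 knockdown arrays. Between the controls these genes differed the opposite way. Scrambled minus empty vector was -0.36 for SLC30A5, -0.29 for SLC39A14 and 0.29 for SLC39A4. The median change of the 16 genes with knockdown was 0.03, against -0.00911 over all genes.

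Genes of other stimuli known to induce metallothioneins were followed in the same way. For this and the next 2 paragraphs, the share called over all genes was 11.8% with knockdown and 5.25% with overexpression. Of 15 measured oxidative stress genes under NRF2, 4 rose and 0 fell with knockdown, led by PIR, an iron-binding nuclear protein, at 1.05 and the quinone reductase NQO1 at 0.58. Without scrambled replicate 3, which stood apart in RNA quality, PIR rose by 0.86 and NQO1 by 0.43, and both were still called. The glutathione synthesis subunit GCLM rose by 0.37 with knockdown, a call lost without knockdown replicate 1 or 3 or scrambled replicate 2 or 3, and the exporter ABCC1 by 0.27, lost without any array but scrambled replicate 3. With overexpression 0 of these 15 rose and 2 fell, GCLM by 0.73 and ABCC1 by 0.27, the latter a call lost without any of the 6 arrays. The haem oxygenase HMOX1, a sensitive marker of cadmium and oxidative stress, had means of 4.67, 4.76, 4.83 and 4.70 in the order of groups used above and passed in no comparison. Its probe set was dim, at the 22.5th percentile of mean level, and whether it measured any transcript was not tested.

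Of 15 heat shock genes 2 rose and 2 fell with knockdown, and 1 rose and 1 fell with overexpression. The collagen chaperone SERPINH1 rose by 0.58 with knockdown and fell by 0.56 with overexpression. The inducible HSPA6 fell by 0.43 with knockdown, a call lost without knockdown replicate 1, and rose by 0.55 with overexpression. Between the controls, scrambled minus empty vector was -0.56 for SERPINH1 (limma adjusted p = 0.000138) and 0.47 for HSPA6 (limma adjusted p = 0.00348). HSPA1L fell by 0.54 with knockdown, and the co-chaperone DNAJA1 rose by 0.27, a call lost without any knockdown array. Of 10 glucocorticoid targets 1 rose and 3 fell with knockdown, and 0 rose and 1 fell with overexpression. TSC22D3 rose by 0.36, a call lost without knockdown replicate 3, and CEBPD fell by 0.40, lost without replicate 2 of either group. The phosphatase DUSP1 fell by 0.36, lost without any of 4 arrays, and the cell cycle inhibitor CDKN1C fell by 0.32, lost without any of 5. With overexpression the kinase SGK1 fell by 0.29, lost without replicate 2 or 3 of either group. FKBP5, a widely used glucocorticoid target, had means of 5.76, 5.84, 5.62 and 5.70 and passed in no comparison. Its probe set stood at the 37.0th percentile of mean level, and whether it measured any transcript was not tested.

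Copper handling genes, 11 of 14 measured, changed in both directions with knockdown, 3 up and 1 down. The copper chaperone SCO2 of cytochrome oxidase assembly rose by 0.40 and the copper transporter SLC31A2 fell by 0.40. CCS, which loads copper onto superoxide dismutase, rose by 0.28, a call lost without replicate 1 or 2 of knockdown or 1 or 3 of scrambled shRNA and with quantile normalization, and the assembly factor COX11 by 0.24, lost without any array but scrambled replicate 1 and with median centring. With overexpression 0 rose and 2 fell, SCO2 by 0.38, a call lost without overexpression replicate 2 or 3 or empty vector replicate 2, and the copper importer SLC31A1 by 0.33, lost without any of the 6 arrays and with quantile normalization. In scrambled minus empty vector the copper list had 4 higher and 4 lower, the oxidative stress list 2 and 1, the heat shock list 2 and 4 and the glucocorticoid list 3 and 1. Each of these lists, like the zinc list, held genes moving both ways in that comparison, in which 29.4% of all genes were called. SCO2 was among the lower genes there, at -0.64, as were NQO1 (-0.36), DNAJA1 (-0.34), CCS (-0.28) and COX11 (-0.28). Among the higher ones were SLC31A2 and CEBPD (0.39 each), DUSP1 (0.37), HSPA1L (0.29) and CDKN1C (0.90). Each of these differences was opposite in sign to the knockdown change of the same gene. PIR, GCLM, ABCC1 and TSC22D3 did not pass there.

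Outside the family, 8 of 19050 probe sets followed the mean family-wide profile with r above 0.9 over the 12 arrays. The 6 genes with the closest profile were the retinol dehydrogenase DHRS9 (r = 0.95), the growth factor binding protein IGFBP5 (0.95), the membrane skeleton protein EPB41L3 (0.94), the adhesion molecule NRXN3 (0.94), the surface glycoprotein CD24 (0.93) and the immunoproteasome subunit PSMB10 (0.93). Their empty vector means exceeded the mean of the other 9 arrays by 0.26 for PSMB10 to 0.80 for DHRS9. DHRS9 read 8.10, 8.51 and 8.13 with empty vector and 7.19 to 7.59 on the other arrays, so its group, too, was highest on replicate 2. Other probe sets of IGFBP5 had r between 0.19 and 0.72 and those of NRXN3 between 0.25 and 0.39, and the probe sets shown for these genes were dim, at the 23.3th and 11.9th percentile. Other probe sets of EPB41L3 had r between 0.67 and 0.75 and those of CD24 between 0.62 and 0.86. The 3 genes with the most opposite profile were the lysosomal peptidase TPP1 (r = -0.97), the actin regulator GMFG (-0.96) and the acyl-CoA synthetase ACSM3 (-0.96). Other probe sets of TPP1 had r between -0.73 and 0.22, and the other one of ACSM3 had -0.83. GMFG stood at 8.45 ± 0.08 in the empty vector group, 9.44 ± 0.13 in the overexpression group, 9.57 ± 0.10 in the scrambled group and 9.28 ± 0.04 in the knockdown group (SD, n = 3). SLC30A1 had r = 0.80 with the same profile.

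**Figure D4:**
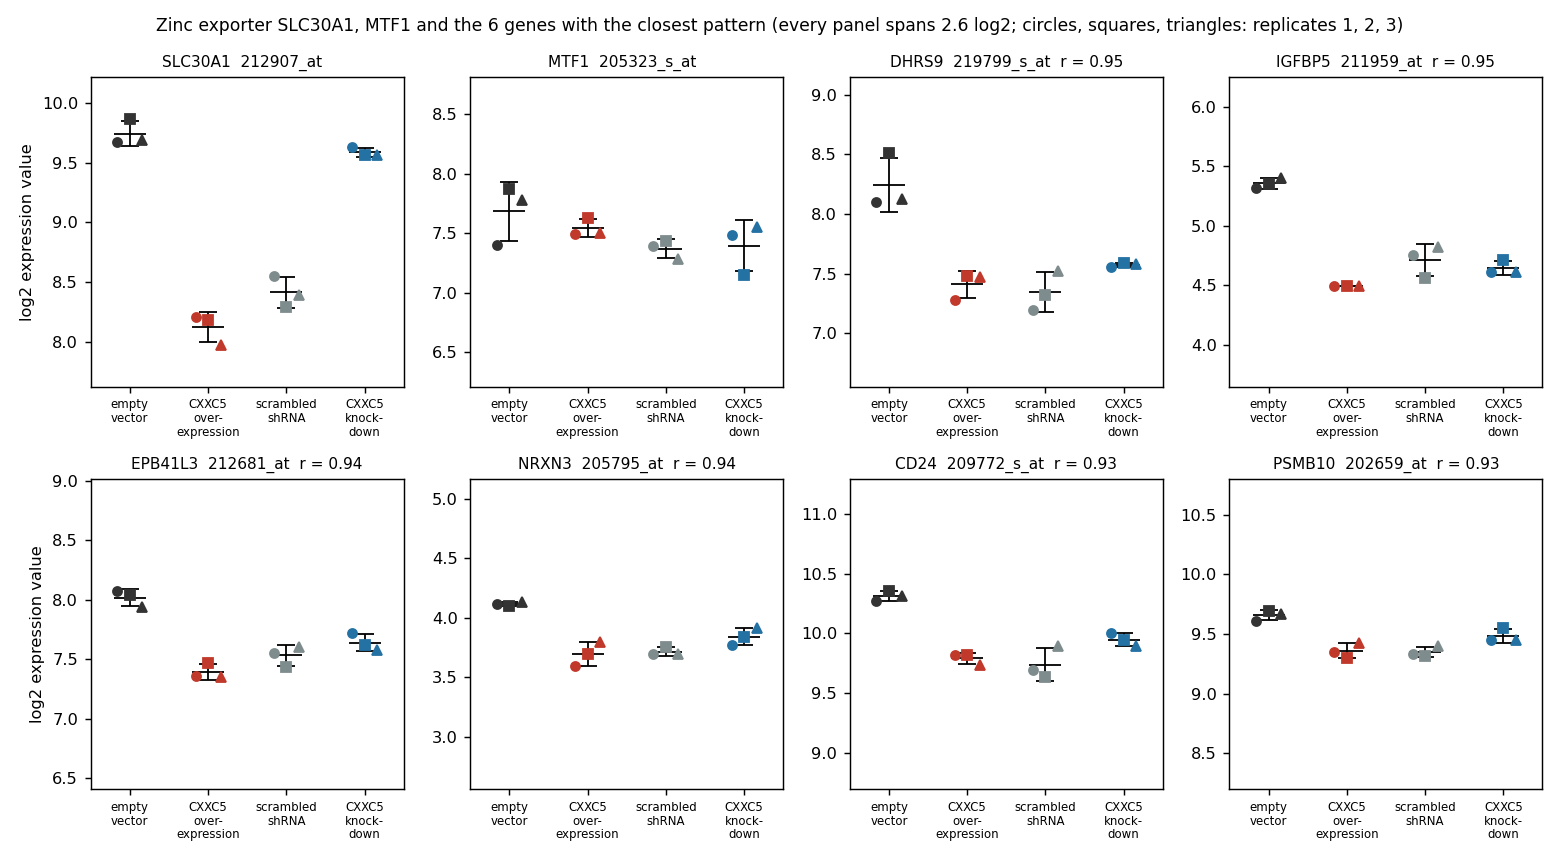
The log2 expression value (y axis) of SLC30A1, MTF1 and the 6 genes with the closest profile is plotted on each array by group (x axis), with mean and SD (n = 3); every panel spans the same log2 range. SLC30A1 is at 9.57 to 9.63 on the knockdown arrays and 9.68 to 9.87 on the empty vector arrays. Both SLC30A1 and the 6 genes with the closest profile have lower means in all 3 groups than with empty vector. The 6 genes were picked for following a profile that is highest with empty vector.

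The label K562 was set against its markers, and the 9 measured erythroid genes had a median at the 85.2th percentile of mean level, with 7 above the 75th. Lymphoid, monocyte and fibroblast or epithelial markers had medians at the 33rd, 21.2th and 28.3th percentile, with 8 of 9, 6 of 6 and 7 of 9 below the 50th. CD3D (92.9th) and EPCAM (94.4th) were the high ones. The array median of the erythroid list was 9.78 to 9.85 with empty vector, 9.48 to 9.71 with overexpression, 9.82 to 9.84 with scrambled shRNA and 9.96 with knockdown. Its single genes moved both ways. With knockdown 4 of the 9 fell, the globins HBE1 by 0.56 and HBZ by 0.44, the haem synthesis enzyme ALAS2 by 0.49 and the transferrin receptor TFRC by 0.43, and the transcription factor GATA1 rose by 0.47. Their median change was -0.31, against -0.00911 over all genes. Over all genes 11.8% were called with knockdown, 5.25% with overexpression and 29.4% in scrambled minus empty vector. Of the 9 erythroid genes 2 rose and 1 fell with overexpression, and 5 were higher and 2 lower in scrambled minus empty vector. That difference between the controls was 0.82 for HBZ, 0.72 for HBE1, 0.39 for TFRC and -0.60 for GATA1. For ALAS2 it was 0.13 and did not pass. Each was opposite in sign to the knockdown change of the same gene. The part of these changes in the results on the metallothioneins was not tested. The level of CXXC5 was not analysed here, and the labels therefore have no check on the targeted gene. Differences between groups can reflect a share of the cells or the RNA per cell, which bulk arrays cannot tell apart.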

How the data were processed

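Biotin-labelled cRNA, made from 500 ng of total RNA per sample with a 3′ in vitro transcription kit per the labels, was measured on 1 Affymetrix array per sample. The authors deposited 1 value per probe set on a scale read here as log2 from its range, 2.07 to 14.4. The submitters' processing notes name Affymetrix Expression Console; no source used here gives its version or method. Array medians were 6.65 to 6.71. Scanner files were not analysed here. After leaving out 62 of 22277 probe sets as controls, 22215 were fitted with limma 3.58.1 (R 4.3.3), 1 coefficient per group, 8 residual degrees of freedom and default eBayes, with Benjamini-Hochberg adjustment over all of them and a threshold of 0.05. A summary of probe sets that share transcripts cannot separate the genes. Symbols came from the platform annotation, of which 19064 probe sets had 1 symbol, and gene identifiers matched RefSeq for 19052. The fit was tested on simulated data. Members and lists were chosen with earlier results of these data known. All members are described. Named genes were all members, up to 4 called genes with the largest change per list and comparison, each by its brightest probe set, and the 6 most and 3 least similar profiles by Pearson's r; HMOX1, FKBP5, MTF1, CD3D, EPCAM and TFRC were added after their values were seen. Replicates correlated at 0.9956 to 0.9981. The number of arrays limits the precision. Figures used matplotlib 3.10.9.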

Additional observations from a re-analysis of the deposited data

How the results depend on the processing

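Both probe sets annotated to MT1X passed in knockdown minus scrambled shRNA under all 12 alternatives. The limma adjusted p-values were 0.000631 to 0.00703 for 204326_x_at, whose gene is uncertain, and 0.00276 to 0.0327 for 208581_x_at. The count of members called, 2, was 4 on the 6 lentiviral arrays alone and 3 without the dimmest probe sets or with a trended robust prior, where MT1HL1 joined. With MT1G 210472_at alone, the member median turned sign for knockdown (-0.18, from 0.25) and for scrambled minus empty vector (0.21, from -2.17) and was -0.14, from -2.42, for overexpression. That probe set ranged from -0.2931 to 0.02241 for knockdown when an array was left out, above 0 only without scrambled shRNA replicate 2. Counts over all probe sets were 2184 for knockdown, 931 for overexpression and 6157 for scrambled minus empty vector. With the 6 arrays compared they were 1055 and 597 for the first 2. Leaving out an array gave 1308 to 1963, 410 to 599 and 3975 to 5796. The counts moved by over 1.5 times without knockdown replicate 1 or 3 or scrambled replicate 2 (1308, 1418 and 1442), without any of the 6 overexpression and empty vector arrays, and, for scrambled minus empty vector, without empty vector replicate 2 (3975). These fits have fewer arrays; any other cause was not tested. The replicate number as a block left 2 members called and gave 2540, 978 and 6729 probe sets in the same order. Same-numbered arrays had deviations correlating at -0.056 to 0.3 for knockdown and -0.008 to 0.304 for overexpression. With so few arrays these values cannot tell whether the numbers pair the samples. CDKN1C for knockdown and SLC31A1 and ABCC1 for overexpression were not called with the block. With the 6 arrays compared, SLC39A4, CCS, COX11, ABCC1, DNAJA1, DUSP1 and CDKN1C were not called for knockdown, nor SLC31A1, SCO2, ABCC1, SGK1 and the erythroid HBE1 for overexpression. A few arrays a group and probe sets that share transcripts limit what can be said of single genes.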
